A study of Sus scrofa with 15 samples.

Results

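The TNF receptor superfamily and TRAF genes described here are 6 receptors (TNFRSF1A, TNFRSF1B, CD40, FAS, LTBR and TNFRSF12A) and 4 intracellular adaptors (TRAF1, TRAF2, TRAF3 and TRAF5), taken by their pig Ensembl symbols from a table of raw read counts for 31908 genes. All 10 genes had a row in the table, and 9 of them had enough reads to be tested. TNFRSF12A did not, because it had 0 counts in every library.

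The study asked how the liver of piglets responds to lipopolysaccharide (LPS), the endotoxin of the outer membrane of Gram-negative bacteria. Male crossbred piglets (Duroc x Large White x Landrace) in the growing stage, 12 in all, were injected intraperitoneally with 80 μg/kg of LPS (LPS group) or with the same dose of sterile saline (CON group), and the livers were taken 4 h later. The libraries used here are 3 per group, made from polyadenylated, fragmented liver RNA that had been set aside as the input of an m6A immunoprecipitation. The immunoprecipitated libraries were not analysed here. All piglets shared the sex, the cross and the injection route, and no age is stated. The labels number the libraries within each group without saying which piglets they came from or whether RNA was pooled, so the p-values measure only the spread between these libraries.

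Total counts were 5927348 to 10351491 for CON and 4348478 to 19967417 for LPS, with LPS replicate 3 the deepest. Levels are given as CPM, read counts scaled to the same total in every library, after TMM scaling, a correction for differences in library composition. The TMM factor was 0.735 for LPS replicate 3 and 0.979 to 1.11 for the other libraries, so the position of LPS replicate 3 depends on this scaling. The 14 hepatocyte markers in the table summed to 63306 to 126225 CPM per library, with ALB, the serum albumin gene, at 12381 CPM or more. SERPINA1, another listed hepatocyte marker, was low at 1.23 to 7.20 CPM. In bulk tissue, fewer cells of a type and less RNA per cell cannot be told apart.

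TNF superfamily ligands bind receptors that lack enzymatic activity of their own. The receptors pass the signal on through adaptors: TRAF proteins, which carry or recruit ubiquitin ligases, and, for receptors with a death domain, TRADD, FADD and RIPK1. The main outputs are NF-κB and MAP kinase signaling or, from death receptors, apoptosis and necroptosis. In the liver, hepatocytes, Kupffer cells, endothelial cells and infiltrating leukocytes all carry receptors of this superfamily, and FAS on hepatocytes is a well-known route to liver injury.

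None of the 9 tested genes was called as changed between the LPS and CON groups. A call required a Benjamini-Hochberg adjusted p below 0.05 in edgeR's quasi-likelihood test over all 12774 tested genes, and a fold change above 1.5. By this rule 7 genes of the whole table were called, which is 0.0548%, so the comparison as a whole gave few calls. CD40, FAS and TRAF1 had an unadjusted p below 0.05, all with higher LPS means, where 6.18% of all tested genes had such a p with a higher LPS mean. DESeq2, an alternative count model, called 1 of the 9 (CD40), against 1.85% of all genes called higher. The fitted log2 fold change was above 0 for 8 of the 9 genes and for 50.5% of all tested genes. TRAF5 was the exception.

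**Figure D1:**
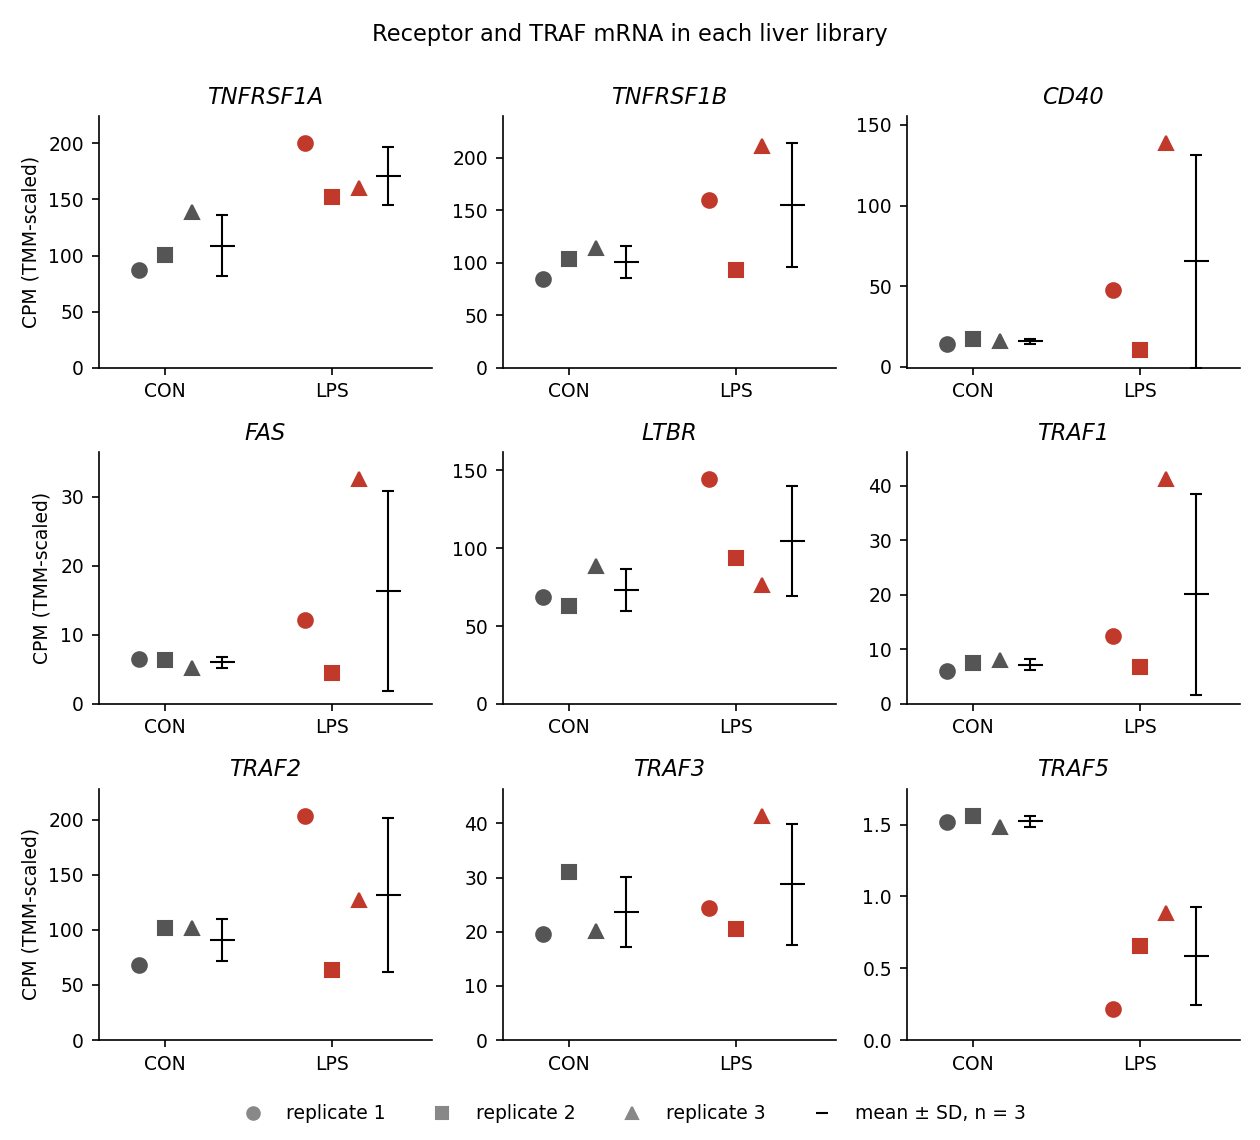
CPM (TMM-scaled, linear axis) of the 9 tested genes in the 3 CON libraries (grey) and the 3 LPS libraries (red), 1 marker shape per replicate, with the mean ± SD of each group (n = 3). CD40, FAS and TRAF1 show 1 very high LPS library, replicate 3 (139, 32.5 and 41.2 CPM), and an LPS replicate 2 at or below the CON level, whereas the LPS markers of TNFRSF1A all lie above the CON markers.

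TNFRSF1A (ENSSSCG00000000708, chromosome 5, 64319073 to 64331909, plus strand, in the coordinates of the deposited table) encodes the death-domain receptor through which soluble TNF mainly acts. It was at 87.0, 100 and 139 CPM in CON replicates 1, 2 and 3 and at 200, 152 and 160 CPM in LPS replicates 1, 2 and 3. On this TMM scale every LPS library was above every CON library. By total counts alone the groups overlapped, since LPS replicate 3 (2341 of 19967417 counts) was below CON replicate 3 (1407 of 10351491). The means were 109 ± 27.0 (SD, n = 3) and 171 ± 25.7 CPM (SD, n = 3), a log2 fold change of 0.65 ± 0.32 (SE), with an edgeR adjusted p of 0.44. The exact two-sided permutation test gave p = 0.1, the smallest value that 3 libraries against 3 can give. For the other tested genes this exact test gave 0.4 for CD40 and FAS, 0.3 for TRAF1 and TNFRSF1B, 0.5 for TRAF2 and TRAF3, 0.2 for LTBR and 0.1 for TRAF5. Of all tested genes, 6.52% had their 3 LPS libraries above the 3 CON libraries. Among the 5 tested receptors TNFRSF1A alone had this separation, and its LPS spread (SD of log2 CPM 0.21) was below the median of all tested genes (0.50).

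TNFRSF1B (ENSSSCG00000022208, chromosome 6, 72195435 to 72231149, plus strand) encodes the other TNF receptor, which lacks a death domain and recruits TRAF2 directly. Its levels were 84.1, 104 and 114 CPM in the CON libraries and 160, 93.4 and 211 CPM in LPS replicates 1, 2 and 3. LPS replicate 2 lay inside the CON range and the other two LPS libraries above it. The fitted log2 difference was 0.62 ± 0.36 (SE) with an edgeR adjusted p of 0.52.

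Since both receptors bind TNF, their balance was compared as the ratio of TNFRSF1B to TNFRSF1A counts per kb of exon within each library, which needs no scaling between libraries. The ratio was 0.571, 0.612 and 0.485 in CON replicates 1 to 3 and 0.472, 0.362 and 0.781 in LPS replicates 1 to 3. The LPS libraries lay on both sides of the CON range, with LPS replicate 3 highest and LPS replicate 2 lowest of all 6. The mean log2 ratio differed by -0.11 (LPS minus CON), less than the spread among LPS libraries (SD 0.56), and the exact two-sided permutation test gave p = 0.8. The difference turned to 0.13 when LPS replicate 2 was left out, so no direction can be read from it.

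LTBR (ENSSSCG00000000706, chromosome 5, 64270310 to 64287523, minus strand) encodes the lymphotoxin-β receptor, which acts through TRAF2 and TRAF3 on the non-canonical NF-κB pathway and lies close to TNFRSF1A on the same chromosome. It was at 68.4, 62.6 and 88.3 CPM in the CON libraries and at 144, 93.4 and 76.1 CPM in LPS replicates 1, 2 and 3. Here LPS replicates 1 and 2 were above all CON libraries and LPS replicate 3 was within their range, unlike in the other receptors. By total counts alone LPS replicate 3 (1114 of 19967417 counts) was below every CON library, the lowest being CON replicate 2 (401 of 5927348). The log2 fold change was 0.51 ± 0.34 (SE), with an edgeR adjusted p of 0.57.

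CD40 (ENSSSCG00000035078, chromosome 17, 48286029 to 48298528, plus strand) encodes the receptor for CD40 ligand on B cells, macrophages and activated endothelium. It had the largest fitted fold change of the 9 genes and the widest spread within the LPS group. CON replicates 1 to 3 were close together at 14.2, 17.5 and 15.7 CPM, whereas LPS replicates 1, 2 and 3 were at 47.3, 10.5 and 139 CPM. LPS replicate 2 was below every CON library, and its 64 reads gave a 95% exact Poisson interval of 8.06 to 13.4 CPM, which covers counting error only. The SD of log2 CPM was 0.15 among CON libraries and 1.84 among LPS libraries. The fitted log2 fold change was 2.06 ± 0.73 (SE), and edgeR's adjusted p was 0.31. With DESeq2 the log2 fold change was 2.10 with an adjusted p of 0.0471. That DESeq2 call was lost when any library except LPS replicate 2 was left out (adjusted p 0.39, 0.20 and 0.17 without CON replicates 1, 2 and 3, and 0.13 and 0.61 without LPS replicates 1 and 3). Its log2 fold change was 2.00, 2.17 and 2.10 without CON replicates 1, 2 and 3 and 2.31 without LPS replicate 1, and it was 0.91 without LPS replicate 3.

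FAS (ENSSSCG00000010448, chromosome 14, 100927089 to 100956716, plus strand) encodes the death receptor for FAS ligand. It was at 6.52, 6.41 and 5.14 CPM in the CON libraries and at 12.2, 4.42 and 32.5 CPM in LPS replicates 1, 2 and 3. The order of the LPS libraries was that seen for CD40, with LPS replicate 2 below every CON library. The 27 reads of LPS replicate 2 gave a 95% exact Poisson interval of 2.91 to 6.43 CPM, which included the lowest CON value. The log2 fold change was 1.46 ± 0.61 (SE), with an edgeR adjusted p of 0.37 and a DESeq2 adjusted p of 0.21.

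TNFRSF12A (ENSSSCG00000027130, chromosome 3, 39166294 to 39168303, minus strand) encodes the receptor for TWEAK and was listed at 0 counts in all 6 libraries. Of its 869 exon bases, 868 (99.9%) also lie in exons of THOC6, an mRNA export gene on the same strand that had 68 to 222 counts per library. Of the 190 genes in the table with at least 99% of their exon bases inside same-strand exons of other genes, 96.3% had 0 counts in every library, against 26.3% of all genes. The 0 therefore gives no level for TNFRSF12A, and no upper limit was computed from it.

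TRAF1 (ENSSSCG00000005511, chromosome 1, 260949111 to 260973709, minus strand) encodes an adaptor that lacks the RING domain of its relatives and pairs with TRAF2, and it is a known NF-κB target. It was at 6.08, 7.50 and 8.01 CPM in CON replicates 1 to 3 and at 12.4, 6.71 and 41.2 CPM in LPS replicates 1 to 3. LPS replicate 2 lay inside the CON range and the other two LPS libraries above it. The log2 fold change was 1.5 ± 0.59 (SE), with an edgeR adjusted p of 0.35 and a DESeq2 adjusted p of 0.17.

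TRAF2 (ENSSSCG00000005838, on an unplaced scaffold) encodes the adaptor that brings the ubiquitin ligases BIRC2 and BIRC3 to TNF receptors. Its levels were 68.4, 102 and 102 CPM in the CON libraries and 204, 63.6 and 127 CPM in LPS replicates 1, 2 and 3, so the LPS libraries lay on both sides of the CON range. In the fit the log2 fold change was 0.54 ± 0.43 (SE), with an edgeR adjusted p of 0.64.

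TRAF3 (ENSSSCG00000002525, on an unplaced scaffold) encodes a brake on non-canonical NF-κB signaling that also serves interferon induction. It was at 19.6, 31.1 and 20.2 CPM in the CON libraries and at 24.4, 20.5 and 41.4 CPM in LPS replicates 1 to 3, with only LPS replicate 3 outside the CON range. Its log2 fold change was 0.29 ± 0.37 (SE), with an edgeR adjusted p of 0.78, and it was -0.056 without LPS replicate 3.

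TRAF5 (ENSSSCG00000021068, chromosome 9, 131775447 to 131822530, minus strand) encodes an adaptor of CD40 and LTBR that is best known from lymphocytes. It was scarce, with 17, 10 and 15 reads in the CON libraries and 1, 4 and 13 reads in LPS replicates 1, 2 and 3. In CPM these were 1.52, 1.56 and 1.48 against 0.218, 0.654 and 0.888, so every LPS library was below every CON library, as in 9.8% of all tested genes. The log2 fold change was -1.22 ± 0.60 (SE) with an edgeR adjusted p of 0.45, and the exact two-sided permutation p was 0.1, the smallest possible. Summed over libraries and scaled for depth, the LPS level was 0.468 times the CON level (95% interval 0.254 to 0.832, counting error only). Against the summed CON libraries, the intervals of LPS replicate 2 (0.112 to 1.19) and LPS replicate 3 (0.288 to 1.11) taken alone included equality, and that of LPS replicate 1, with 1 read, did not (0.0036 to 0.846). The summed CPM of 11 B or plasma cell markers was 56.9 to 129 in the CON group and 24.0, 61.2 and 48.3 in LPS replicates 1 to 3, with log2 fold changes below 0 in 7 of the 8 tested. The part of these cells in the TRAF5 values was not tested.

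The LPS libraries of these genes did not rank in 1 common way. LPS replicates 1 and 3 were both above all CON libraries in 6 of the 9 genes (TNFRSF1A, TNFRSF1B, CD40, FAS, TRAF1 and TRAF2), against 18.9% of all tested genes. In 5 of these 6 LPS replicate 2 was not above the CON libraries (12.4% of all tested genes), and in CD40, FAS and TRAF2 it was below them (3.54%). Its 95% exact Poisson interval included the lowest CON value in FAS (2.91 to 6.43 CPM) and in TRAF2 (57.5 to 70.3 CPM). In CD40 that interval (8.06 to 13.4 CPM) overlapped the interval of CON replicate 1 (12.1 to 16.6 CPM). LPS replicate 3 was the highest of the 6 libraries for 5 genes and LPS replicate 1 for 3 genes, against 27.2% and 17.2% of all tested genes. All these positions are on the TMM scale. The patterns counted were not among the planned results, so their shares are a description. By total counts alone, LPS replicate 3 was not above all CON libraries in TNFRSF1A, TRAF2 or TRAF3, and in LTBR it was below all of them.

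**Figure D2:**
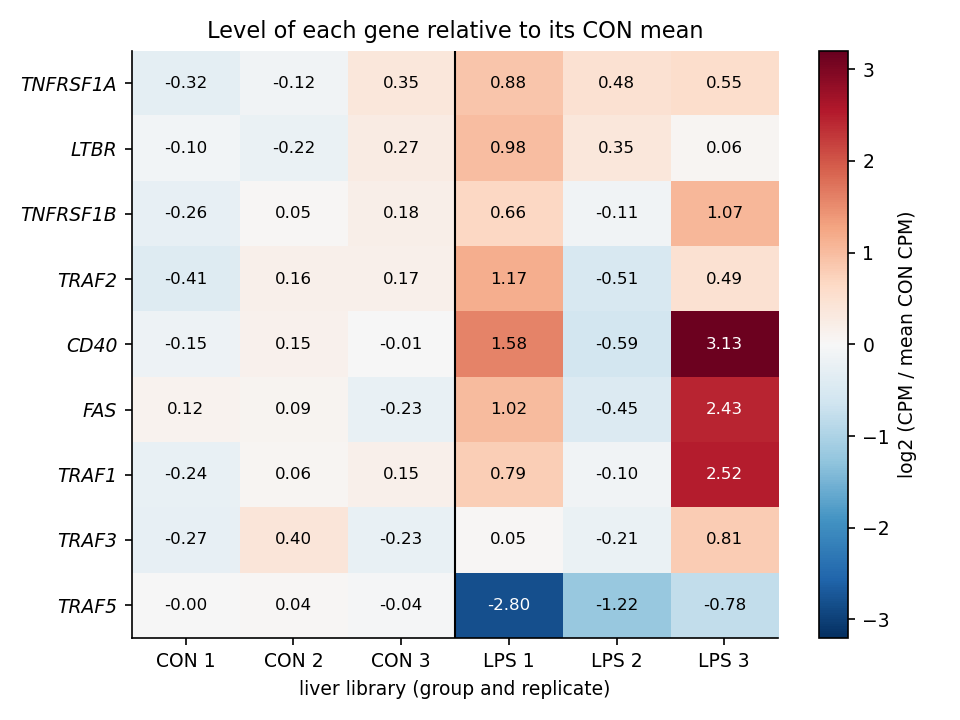
Log2 of the CPM (TMM-scaled) of each tested gene over its CON mean, 1 column per library, with red for above and blue for below the CON mean. CD40, FAS and TRAF1 reach 3.13, 2.43 and 2.52 in LPS replicate 3 and are below 0 in LPS replicate 2, TNFRSF1A and LTBR are above 0 in all 3 LPS libraries, and TRAF5 is below 0 in all 3.

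Leaving out LPS libraries moved 3 genes most. Without LPS replicate 2, edgeR called CD40 (log2 fold change 2.57, adjusted p 0.00706), FAS (1.91, adjusted p 0.0275) and TRAF1 (1.92, adjusted p 0.0339), where 3.76% of all tested genes were called higher. Without LPS replicate 3, the log2 fold changes were 0.88 for CD40, 0.47 for FAS and 0.42 for TRAF1, and none of the 3 was called, against 0.31% of all tested genes called higher. TRAF2 and LTBR rested more on LPS replicate 1, without which their log2 fold changes were 0.088 and 0.22, neither of them called with or without it. TNFRSF1A was at 0.53 to 0.73 whichever LPS library was left out and was not called. Without a filter on low counts, edgeR called the same 3 genes on all 6 libraries, with adjusted p of 5.27e-05 for CD40, 0.0302 for FAS and 0.0189 for TRAF1, where 2.28% of all genes were called higher.

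**Figure D3:**
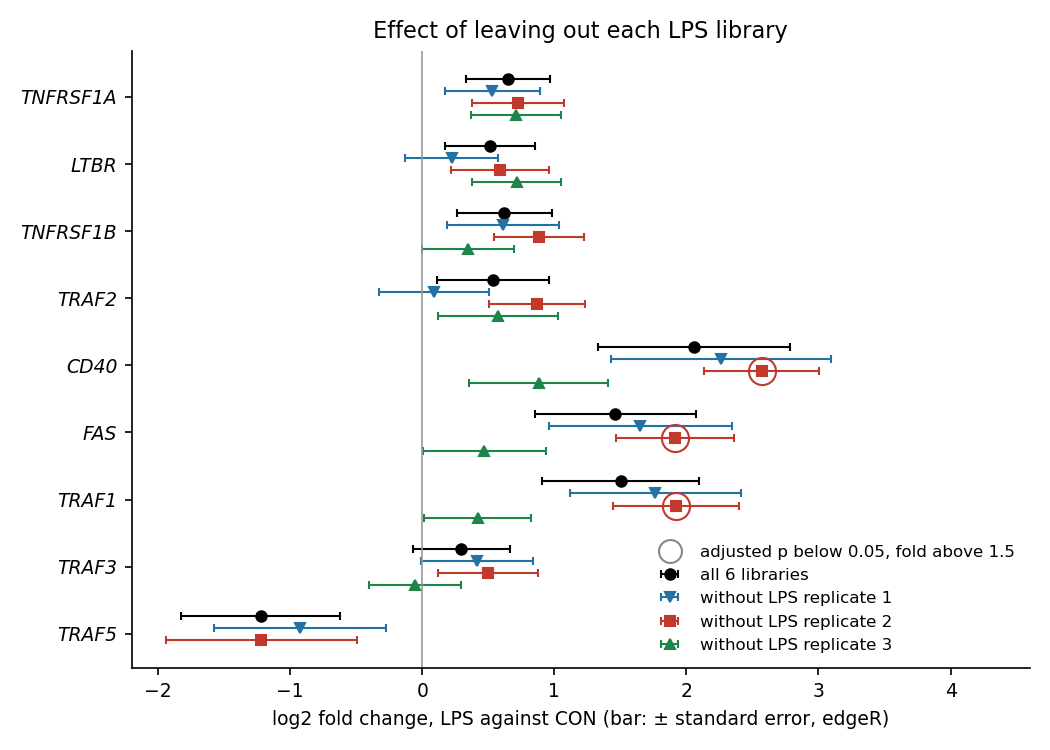
Log2 fold change (LPS against CON, edgeR, bars ± SE) of the tested genes with all 6 libraries and with each LPS library left out, circles marking an adjusted p below 0.05 with a fold above 1.5. The circled values are CD40, FAS and TRAF1 without LPS replicate 2 (2.57, 1.91 and 1.92), and the same genes are lowest without LPS replicate 3 (0.88, 0.47 and 0.42), a setting in which TRAF5 had too few reads to be tested.

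Marker genes of other cells also differed between the LPS libraries. The summed CPM of 13 neutrophil markers was 52.5 to 100 in the CON group and 212, 156 and 383 in LPS replicates 1, 2 and 3, with log2 fold changes above 0 in 8 of the 10 tested. CSF3R, the receptor for the neutrophil growth factor G-CSF, was at 5.90, 10.6 and 16.2 CPM in the CON libraries and 99, 46.8 and 100 CPM in the LPS libraries. Thus LPS replicate 2 was above all CON libraries in these markers while it was not in CD40, FAS and TRAF1. The 6 red blood cell or platelet markers in the table summed to 73.0 to 100 CPM in the CON group and to 232, 91.0 and 329 CPM in LPS replicates 1, 2 and 3. Both this sum and the neutrophil sum ranked the LPS libraries as CD40, FAS and TRAF1 did, with replicate 3 highest and replicate 2 lowest, but only in the red blood cell or platelet sum was replicate 2 within the CON range. HBB, the β-globin gene, made up most of this sum, with 192, 72.6 and 246 CPM in LPS replicates 1 to 3. Kupffer cell or macrophage markers (14 genes) summed to 2585 to 4135 CPM in CON libraries and 2744 to 4238 CPM in LPS libraries, with log2 fold changes below 0 in 13 of 14. The exception was CD14, the LPS co-receptor, with 518 to 821 CPM in CON libraries and 1354, 805 and 2328 CPM in LPS replicates 1 to 3. Without CD14, left out after its values were seen, the other 13 summed to 2068, 2119 and 3314 CPM in CON replicates 1 to 3 and to 1390, 2360 and 1909 CPM in LPS replicates 1 to 3. VSIG4, TIMD4, MRC1 and MSR1, 4 of the 14, were below all CON libraries in every LPS library, as were 9.8% of all tested genes. The rest overlapped between the groups, among them CD163, CSF1R, CD68 and C1QA. The T or NK cell sum was 267, 270 and 1214 CPM in LPS replicates 1 to 3 against 258 to 353 CPM in the CON group, and CCL5, a chemokine gene, made up 1032 CPM of it in LPS replicate 3. Log2 fold changes were below 0 in 8 of the 11 tested T or NK cell markers, with a median of -0.28. Of these, CD2 and CD4 were below all CON libraries in every LPS library. Endothelial markers summed to 592 to 962 and 643 to 834 CPM in the CON and LPS groups. Their log2 fold changes were below 0 in 8 of the 12 tested. LYVE1 and CLDN5 were above all CON libraries in every LPS library (6.52% of all tested genes), and TEK was below them (9.8%). No listed marker in the table was at 0 in every library. The part of any of these cells, or of the greater depth of LPS replicate 3, in the receptor and TRAF values was not tested.

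Levels were compared between genes per kb of exon (RPKM, the TMM-scaled CPM divided by the exon length in kb). In the CON group TNFRSF1A was highest at 45.6 ± 11.3 (SD, n = 3), followed by TRAF2 at 35.4 ± 7.52, TNFRSF1B at 24.9 ± 3.80 and LTBR at 23.5 ± 4.34 RPKM. The ranges of neighbours in this order overlapped. CD40 came next at 9.05 ± 0.94 RPKM, then TRAF3 at 3.33, TRAF1 at 1.78, FAS at 1.21 and TRAF5 at 0.480 RPKM, each without overlap with the next. The median tested gene was at 3.43 RPKM, so TNFRSF1A stood at percentile 94.0 and FAS at percentile 24.7 of all tested genes in saline-treated liver.

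**Figure D4:**
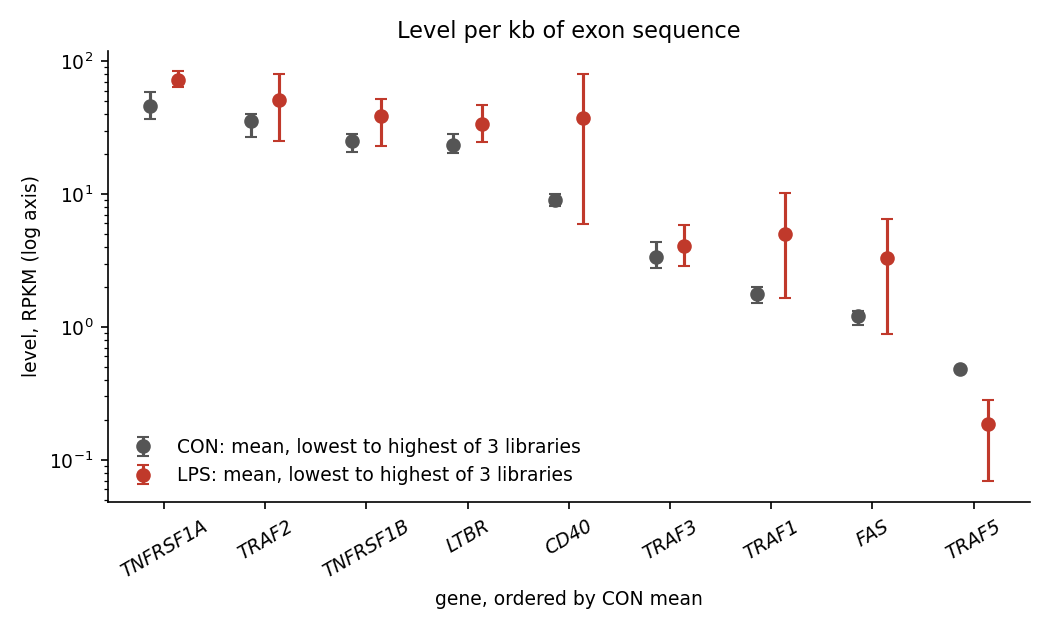
Mean RPKM of each tested gene on a log axis, with bars from the lowest to the highest of the 3 libraries of the CON (grey) and LPS (red) groups. TNFRSF1A heads both groups (45.6 and 71.5 RPKM), TRAF5 is lowest in both (0.480 and 0.185 RPKM), and the LPS bar of CD40 runs from 5.99 to 79.4 RPKM.

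Of the summed RPKM of the 5 tested receptors, CD40 held 8.82% ± 1.48 (SD, n = 3) in the CON group and 13.6%, 4.84% and 34.6% in LPS replicates 1, 2 and 3. In LPS replicate 3 the share of CD40 was thus above that of TNFRSF1A (29.1%), the highest receptor in each other library. Among the 4 adaptors TRAF2 held 75.2% to 92.3% in every library. The TRAF1 share was 4.4% ± 0.39 (SD, n = 3) in the CON group and 3.57%, 5.61% and 15.5% in LPS replicates 1 to 3.

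Across the 6 libraries the log2 CPM of CD40 had a Pearson correlation of 0.99 with FAS, 0.97 with TRAF1 and 0.96 with TNFRSF1B, and of 0.19 with LTBR. TNFRSF1A had its highest positive correlation with LTBR (0.84) and a correlation of -0.86 with TRAF5. These points share 2 groups and 1 very deep library, so the values are a description. Of 10755 genes with a symbol, those with the pattern most like that of CD40 were S1PR3 (0.999), ZFP36 (0.997) and RGCC (0.996). The most like TRAF1 were PTPN1 (0.997), SAFB (0.995) and IKBKE (0.995), again over 6 libraries.

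The genes around these receptors were counted by role. Of 77 tested genes in 6 lists, 0 were called by edgeR, 4 of 87 by DESeq2, and 10 of 80 by edgeR without LPS replicate 2. The background is 0.0548%, 2.81% and 7.2% of all tested genes. For DESeq2 the 87 are all listed genes with at least 1 read, whereas the 2.81% is over the 14829 genes with an adjusted p. With all 6 libraries, 11 of the 77 had an unadjusted p below 0.05 with a higher LPS mean and 2 with a lower one, against 6.18% and 6.33% of all tested genes. All 3 LPS libraries were above all CON libraries in 6 of the 77 and below them in 3. The shares over all tested genes were 6.52% and 9.8%.

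Of the other receptors and TRAF genes, 14 were tested and 10 had log2 fold changes above 0, with a median of 0.54 against 0.0057 over all tested genes. RELT, a receptor found in lymphoid tissue, was at 5.09, 13.4 and 12.3 CPM in the CON libraries and at 29.9, 20.3 and 28.3 CPM in the LPS libraries, a log2 fold change of 1.36 (edgeR adjusted p 0.24). TRAF4, an adaptor with roles in epithelia, was at 30.5, 39.4 and 41.5 CPM against 69.1, 69.0 and 68.5 CPM, a log2 fold change of 0.89 (adjusted p 0.26). In both genes all LPS libraries, replicate 2 included, were above all CON libraries. TNFRSF11B, which encodes the decoy receptor osteoprotegerin, was at 1.07, 0.156 and 1.19 CPM against 3.71, 2.13 and 10.7 CPM (log2 fold change 2.72, adjusted p 0.22), also without overlap. The p of TNFRSF18 and TNFRSF21 was also below 0.05 with higher LPS means, and that of TNFRSF19 with a lower one. TNFRSF19 was at 17.2, 15.5 and 7.32 CPM in the CON libraries and at 0.218, 5.56 and 0.683 CPM in the LPS libraries. TNFRSF11A was at 4.47, 3.91 and 4.05 CPM against 1.31, 3.44 and 0.751 CPM (log2 fold change -1.22, edgeR adjusted p 0.43). For TNFRSF19 and TNFRSF11A every LPS library was below every CON library. TNFRSF11A, TNFRSF18, TNFRSF19 and TNFRSF21 were named after their values were seen.

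The ligands were measured thinly. Of 18 listed, 13 had a row and 6 were tested, and TNF, LTB, TNFSF10, TNFSF11 and TNFSF15 were not paired with a row by symbol. CD40LG and LTA, the ligands of CD40 and of the TNF receptors, had too few reads to be tested. Log2 fold changes of the 6 tested ligands had their median at -0.27, and none had an unadjusted p below 0.05. FASLG, the ligand of FAS, had a log2 fold change of -0.42 (adjusted p 0.78), and TNFSF14, a ligand of LTBR, of 0.53 (adjusted p 0.60). Both were named after their values were seen, as ligands of receptors described here.

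Downstream of the receptors, 22 genes of the receptor complex, ubiquitin ligases and death adaptors were tested, with log2 fold changes above 0 in 18 and a median of 0.23. TNIP1, which helps the deubiquitinase TNFAIP3 to restrain NF-κB, was at 92.5, 122 and 124 CPM in the CON libraries and at 286, 136 and 440 CPM in LPS replicates 1 to 3, without overlap (log2 fold change 1.34, edgeR adjusted p 0.26). Its relative TNIP2 was at 17.2, 25.5 and 29.7 CPM against 41.6, 21.4 and 105 CPM, with LPS replicate 2 inside the CON range (log2 fold change 1.22, adjusted p 0.38). Of 19 tested kinases between the receptors and NF-κB or AP-1, 11 had log2 fold changes above 0, with a median of 0.077. MAP2K6, a kinase that activates p38, was at 7.33, 4.53 and 5.64 CPM in the CON libraries and 1.74, 3.44 and 1.78 CPM in the LPS libraries, all below CON (log2 fold change -1.34, adjusted p 0.27).

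All 11 NF-κB and IκB genes had log2 fold changes above 0, with a median of 0.77, and 0 were called. LPS replicate 3 was above all CON libraries in 11 of them (34.9% of all tested genes), LPS replicate 1 in 6 (32.1%) and LPS replicate 2 in 0 (23.3%). BCL3, an atypical IκB protein of the nucleus, was at 21.5, 27.0 and 28.1 CPM in the CON libraries and at 195, 15.5 and 164 CPM in LPS replicates 1 to 3, again with LPS replicate 2 lowest (log2 fold change 2.29, edgeR adjusted p 0.26). NFKBIB and NFKBIE, inhibitors that hold NF-κB in the cytoplasm, had log2 fold changes of 1.05 and 1.14 (adjusted p 0.36 and 0.39). Of the 5 genes that govern receptor shedding, TIMP3, the inhibitor of the sheddase ADAM17, was at 41.8, 47.8 and 32.3 CPM against 90.1, 76.9 and 259 CPM, without overlap (log2 fold change 1.81, adjusted p 0.21). ADAM17 itself was at 7.42, 7.34 and 7.32 CPM in the CON libraries and 5.89, 7.03 and 13.7 CPM in LPS replicates 1 to 3, and was named after its values were seen.

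**Figure D5:**
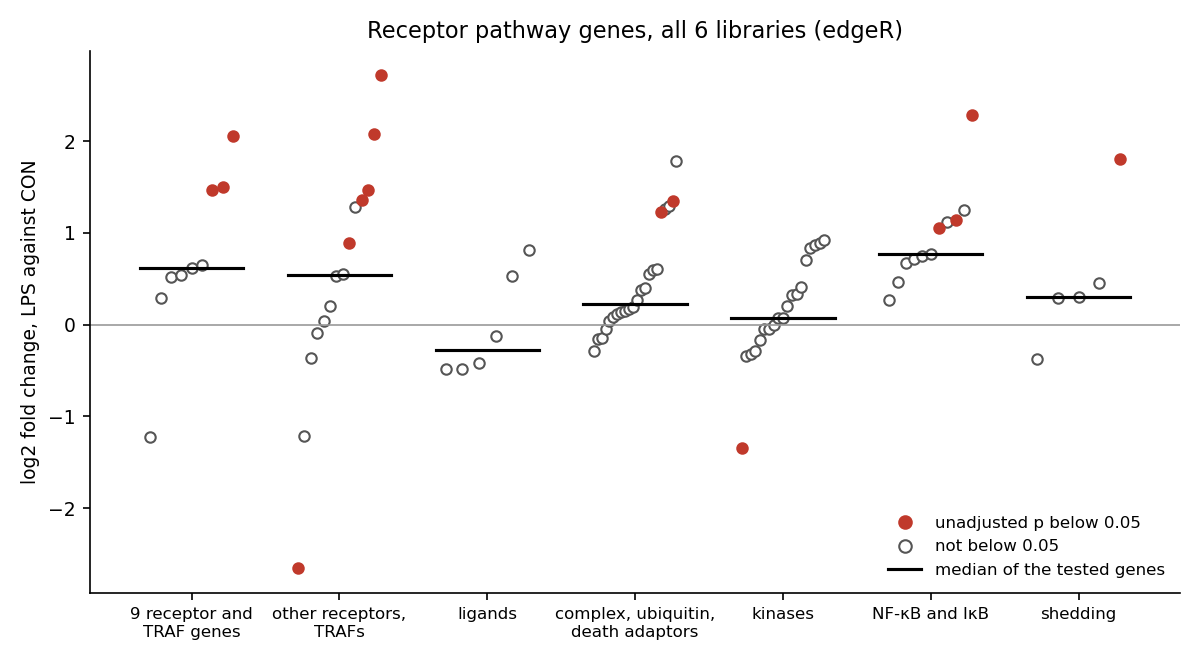
Log2 fold change (LPS against CON, edgeR, 6 libraries) of every tested gene by role, with the median of each group as a bar and filled points for an unadjusted p below 0.05. All 11 NF-κB and IκB genes lie above 0 (median 0.77), the 6 ligands have a median of -0.27, and no gene shown passed the adjusted threshold.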

How the data were processed

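The table the authors deposited holds raw, unnormalized counts of reads for each gene, with gene coordinates and exon length. The submitters' processing notes name cutadapt 1.9.3 and HISAT2, and list the builds galGal6 and hg38, neither of which is pig. The pig build, the counting program and its treatment of strand and shared reads are not named in the sources used here. CON replicates 1 and 2 have 2 sequencing entries each but 1 column each, and 0 sample columns were left unmapped. Symbols were paired with 15029 identifiers. The receptor and TRAF genes and the lists were chosen with earlier results of these data known.

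Counts were compared in R 4.3.3 with edgeR 4.0.16 (filterByExpr with a minimum count of 10, TMM, robust glmQLFit and glmQLFTest, 3 libraries per group, no covariates). The procedure was tested on simulated data in which all libraries of a group had the same expected level, so that test does not cover a library that departs from its group. RPKM, ratios and shares were computed from the counts. Exact Poisson intervals cover counting error only. Correlations used log2 CPM with a pseudocount of 1, and SDs of log2 CPM a pseudocount of 0.5. Besides the receptors and TRAF genes, up to 3 genes per list with the smallest unadjusted p below 0.05 were named, the 3 genes most correlated with the receptor and the TRAF gene of smallest p, and cell markers set beside a result. Alternatives were RLE and total count scaling, 2 other filters, other fold thresholds, DESeq2 1.42.0 (adjusted p given as NA kept so), limma-voom 3.58.1, a replicate block and leaving out each library.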

Additional observations from a re-analysis of the deposited data

How the results depend on the processing

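The number of receptor and TRAF genes called was 0 in edgeR and stayed 0 with RLE or total count scaling, with 10 counts required in every library, with limma-voom and with either other fold threshold. The CD40 log2 fold change, 2.06 in edgeR, was 1.42 with limma-voom and 1.46 with the replicate block. The number called was 3 without a filter on low counts (CD40, FAS and TRAF1), 1 with DESeq2 (CD40) and 0 to 3 when each library was left out, the 3 being CD40, FAS and TRAF1 without LPS replicate 2. Of the surrounding pathway genes 0 were called in edgeR, 10 without a filter, 4 with DESeq2 and 0 to 10 when each library was left out. After seeing the data, edgeR's likelihood ratio test and DESeq2 without each library were added. The likelihood ratio test called 0 receptor or TRAF genes and 2 of 77 pathway genes, against 2.78% of all tested genes. DESeq2 without each library called 0 to 3 receptor or TRAF genes and 0 to 17 pathway genes, against 0.815% to 10.9% of genes with an adjusted p. The 3, the 17 and the 10.9% all came without LPS replicate 2. The TNFRSF1B to TNFRSF1A difference ranged from -0.42 to 0.13 on the log2 scale when each library was left out, and was 0.13 without LPS replicate 2. The TRAF3 log2 fold change ranged from -0.056 to 0.54 in edgeR and from -0.037 to 0.58 in DESeq2 when each library was left out, the lowest being without LPS replicate 3. The causes of these differences were not tested, nor was the part of having fewer libraries in each fit that leaves one out. The deviations of same-numbered libraries from their group means had correlations of -0.27, 0.23 and 0.023. With 3 libraries per group these values cannot decide whether the numbers pair libraries. A replicate block left 0 receptor or TRAF genes and 0 pathway genes called, against 0.399% of all tested genes. The median log2 fold change of all genes was 0.0057 with TMM, 0.046 with RLE and -0.12 with total counts. TRAF5, with 1 to 17 reads per library, was below the filter in several settings.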
